A study of Mus musculus with 4 samples.

Results

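The genes described here are 10 genes of early embryonic cells, taken by symbol from 22180 genes measured at both times: Fgf5, Utf1, L1td1, Foxd3, Sall2, Pim2, Vrtn, Calcr, Slc27a2 and Thy1. They were put together as genes of the primed epiblast that fall steeply between day 4 and day 7, so they were chosen by their day 7 minus day 4 difference in these arrays, which is given below as a description, with no test. Each gene was read from 1 probe set that names that gene and no other, and where a gene had several, from the brightest. The samples were aggregates grown in retinal differentiation medium containing matrigel. They were made from mouse embryonic stem cells that were otherwise wild-type, with 2 samples collected at day 7 and 2 at day 4. All 4 came from the line EB5 of the 129/Ola strain, carrying GFP knocked in under the Rx promoter, Rx being the eye field gene Rax. The labels do not say whether the 2 samples of a day were separate cultures, so the errors and p-values below cover the spread among these arrays alone, and that spread may be technical.

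After implantation the pluripotent epiblast passes from a naive state, marked by genes such as Zfp42 and Esrrb, through a formative state to a primed one. Markers of the primed state are Fgf5, Pou3f1 and Otx2. In aggregate cultures of embryonic stem cells the same order of states comes before neural and eye field tissue. Fgf5 encodes a secreted growth factor and is the usual marker of the primed state, while Utf1, L1td1 and Foxd3 are used by naive and primed cells alike. Calcr, Slc27a2 and Thy1 are better known from other tissues, namely bone and brain, liver and kidney, and T cells and neurons. No sample of naive or primed stem cells was analysed here, so the state named in the grouping could be set only against lists of marker genes.

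The grouping as steep falls held for 8 of the 10 genes at a limit of 2 log2 units, chosen here after the values were seen. Foxd3 was 2.07-fold lower at day 7 and Sall2 1.12-fold, so the name does not describe Sall2. Over all 22180 genes 0.361% were at least 2 log2 units lower at day 7 and 2.23% at least 1 unit, which 9 of the 10 were. Day 7 and day 4 values did not overlap for any of the 10 genes, all lower at day 7, as was so for 25.1% of all genes. The median of the 10 differences was -3.15, against -0.00362 over all genes. The array values are log2 signals, and folds are given beside the differences. In whole aggregates fewer cells that express a gene and less RNA of it per cell cannot be told apart.

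**Figure D1:**
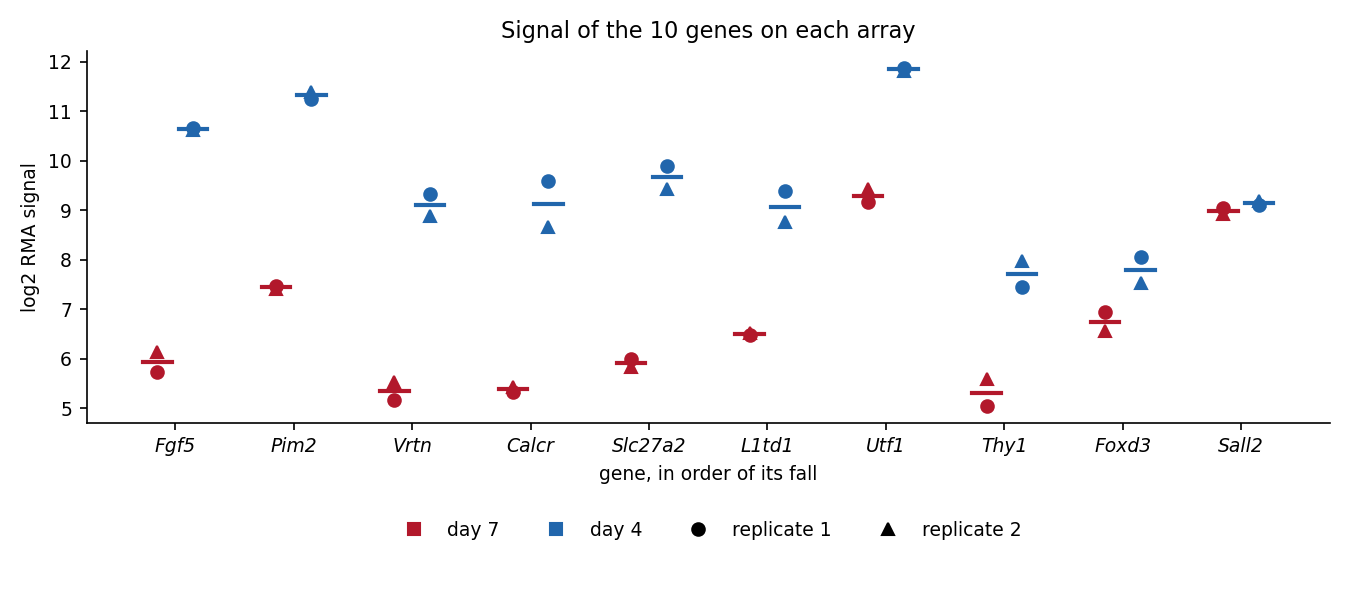
Log2 RMA signal (vertical axis) of the 10 genes on each array, day 7 left of day 4 for each gene, with circles for replicate 1, triangles for replicate 2 and a bar for the mean. The days stand far apart for Fgf5, Pim2, Vrtn, Calcr and Slc27a2 (13.4-fold to 26.1-fold) and nearly touch for Sall2 (1.12-fold).

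Promoter sequence is something the choice of genes did not use. RefSeq windows of assembly GRCm38.p6, from 250 bases before to 50 bases after a start site, were at hand for 9 of the genes, in 13 windows because Calcr, Sall2 and Vrtn have several. The windows were searched on both strands. The letters searched were GGGCGG for the GC box, then CCAAT for the CCAAT box, then TATAAA for the TATA box, then CACGTG for the E-box, then ATTTGCA for the core of the octamer bound by POU factors such as Oct4, and last AACAATG for a form of the Sox motif. ATTTGCA was found in 2 of 13 windows, those of Pim2 and Vrtn, against 3.69% of the 20607 windows of measured genes. Pim2 had it at 202 and at 122 bases before the start, on opposite strands, and Vrtn at 153 bases before the start of its most upstream window. Neither GGGCGG (5 of 13, against 46.5%) nor CCAAT (4 of 13, against 37.7%) had a higher share here than among all windows. TATAAA was in 2 of 13 (12.3% of all windows), CACGTG in 1 of 13 (8.07%) and AACAATG in 0 of 13 (3.25%). The windows of 4 genes are shown from 250 bases before the start to the start, 5′ to 3′, with every match on either strand in capitals: Pim2 and Vrtn for the octamer core, Utf1 for its run of GC boxes, and Fgf5 as the gene with the largest fall.
Pim2 chrX:7878056-7878305, plus strand: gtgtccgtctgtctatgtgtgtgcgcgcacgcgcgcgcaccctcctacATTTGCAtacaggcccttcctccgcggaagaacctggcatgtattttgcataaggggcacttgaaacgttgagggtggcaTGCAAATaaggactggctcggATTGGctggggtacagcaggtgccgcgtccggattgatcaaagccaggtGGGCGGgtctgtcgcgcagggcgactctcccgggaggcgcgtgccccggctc
Vrtn chr12:84640769-84641018, plus strand: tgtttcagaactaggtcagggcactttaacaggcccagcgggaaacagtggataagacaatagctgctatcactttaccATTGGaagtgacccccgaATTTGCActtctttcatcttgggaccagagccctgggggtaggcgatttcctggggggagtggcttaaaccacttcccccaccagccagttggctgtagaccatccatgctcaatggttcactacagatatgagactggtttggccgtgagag
Utf1 chr7:139943606-139943855, plus strand: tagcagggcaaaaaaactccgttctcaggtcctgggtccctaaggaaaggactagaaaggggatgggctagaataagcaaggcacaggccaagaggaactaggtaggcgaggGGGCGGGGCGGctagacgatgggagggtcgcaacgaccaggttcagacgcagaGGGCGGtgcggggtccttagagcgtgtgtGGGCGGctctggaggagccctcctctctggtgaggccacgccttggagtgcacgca
Fgf5 chr5:98253934-98254183, plus strand: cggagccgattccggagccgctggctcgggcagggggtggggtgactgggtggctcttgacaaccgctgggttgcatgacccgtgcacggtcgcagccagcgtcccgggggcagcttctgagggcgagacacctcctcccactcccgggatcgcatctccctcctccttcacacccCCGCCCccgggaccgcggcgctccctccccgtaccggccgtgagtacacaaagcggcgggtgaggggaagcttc
The Utf1 window holds 4 GC boxes, of which those at 138 and 133 bases before the start overlap by 1 base. The Fgf5 window has 1 GC box, 74 bases before the start, and 29 CpG dinucleotides, an observed over expected ratio of 0.828 against a median of 0.571 over all windows. Over the 13 windows that ratio ranged from 0.146 in a window of Sall2 to 1.06 in that of Pim2, with a median of 0.559. These are letters in a window and were not tied to the array values.

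Among the secreted and surface proteins, Fgf5 gave the largest difference. Fgf5 (probe set 17439517) had a log2 signal of 5.74 and 6.13 at day 7, against 10.66 and 10.62 at day 4. The means were 5.93 ± 0.27 at day 7 and 10.64 ± 0.03 at day 4 (SD, n = 2 each), a difference of -4.71 (SE 0.17), or 26.1-fold lower. The day 4 arrays were nearly equal and both stood far above the day 7 arrays, and 4 of the 22180 genes had a larger fall. Leaving out 1 array at a time gave differences between -4.90 and -4.51.

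Calcr encodes the calcitonin receptor, a G protein-coupled receptor of the cell surface. Its log2 signal on probe set 17464549 was 5.33 and 5.43 at day 7, while day 4 gave 9.59 and 8.67. The day 7 arrays were close together and the day 4 arrays 0.92 log2 units apart, the widest pair of any of the 10 genes. The means were 5.38 ± 0.07 at day 7 and 9.13 ± 0.65 at day 4 (SD, n = 2 each), and the difference was -3.75 (SE 0.28, 13.4-fold lower). Dropping day 4 replicate 1 made it 9.76-fold lower, and dropping day 4 replicate 2 made it 18.5-fold lower.

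Slc27a2 encodes a membrane enzyme that takes up long-chain fatty acids and joins them to coenzyme A. Its brighter probe set 17375701 gave 6.002 and 5.84 on the day 7 arrays, against 9.89 and 9.43 on the day 4 arrays, with means of 5.92 ± 0.11 at day 7 and 9.66 ± 0.32 at day 4 (SD, n = 2 each). The difference was -3.74 (SE 0.19, 13.4-fold lower), and both day 4 arrays stood more than 3 log2 units above both day 7 arrays. A dimmer probe set of the same gene, 17391089, gave 4.36 and 4.44 at day 7 and 5.05 and 4.98 at day 4, a difference of -0.61 in the same direction. The mean of the pair of probe sets gave -2.18.

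Thy1 encodes a glycoprotein anchored to the outer membrane by a lipid, known from T cells, fibroblasts and neurons, retinal ganglion cells included. Its day 7 arrays gave 5.05 and 5.58, against 7.45 and 7.96 on the day 4 arrays (probe set 17516462). The arrays of each day were more than 0.5 log2 units apart, replicate 2 being the higher at both days, yet the days did not overlap. The means were 5.31 ± 0.38 at day 7 and 7.71 ± 0.36 at day 4 (SD, n = 2 each), a difference of -2.40 (SE 0.24, 5.26-fold lower).

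Pim2 encodes a serine/threonine kinase that promotes survival and growth and is active as soon as it is made. Its signal was 7.47 and 7.41 in day 7 aggregates, against 11.25 and 11.39 in day 4 aggregates (probe set 17533031). The means of 7.44 ± 0.04 at day 7 and 11.32 ± 0.09 at day 4 (SD, n = 2 each) gave a difference of -3.88 (SE 0.14, 14.7-fold lower). Its arrays agreed within each day, and leaving out 1 array at a time kept the difference between -3.94 and -3.81, a narrow range beside that of Calcr.

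Of the nuclear proteins, Vrtn and Utf1 were much lower at day 7, Foxd3 moderately and Sall2 hardly. Vrtn (vertnin), known from pigs as a gene whose variants go with the number of vertebrae, had 5.16 and 5.53 in day 7 aggregates, against 9.32 and 8.88 in day 4 aggregates (probe set 17277287). The means were 5.34 ± 0.26 at day 7 and 9.10 ± 0.31 at day 4 (SD, n = 2 each), and the difference was -3.76 (SE 0.20, 13.5-fold lower). Utf1, a chromatin protein of undifferentiated embryonic cells, had 9.16 and 9.42 in day 7 aggregates, against 11.88 and 11.81 in day 4 aggregates (probe set 17484454). With means of 9.29 ± 0.18 at day 7 and 11.84 ± 0.05 at day 4 (SD, n = 2 each), it was 5.86-fold lower (difference -2.55, SE 0.15).

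Foxd3 is a forkhead transcription factor that the early mouse epiblast needs and that neural crest cells use again. Its probe set 17415774 gave 6.94 and 6.55 in day 7 aggregates, against 8.05 and 7.54 in day 4 aggregates. The means were 6.75 ± 0.28 at day 7 and 7.80 ± 0.37 at day 4 (SD, n = 2 each), a difference of -1.05 (SE 0.22), and the nearest day 7 and day 4 arrays were 0.59 log2 units apart. Leaving out 1 array at a time gave 1.73-fold to 2.48-fold lower values. Sall2, a zinc finger factor of the spalt family, had 9.04 and 8.92 in day 7 aggregates, against 9.11 and 9.17 in day 4 aggregates (probe set 17306304). Its means were 8.98 ± 0.09 at day 7 and 9.14 ± 0.05 at day 4 (SD, n = 2 each). The difference of -0.16 (SE 0.14) was about the size of its error, 26.5% of all genes had a larger fall, and the nearest arrays of the 2 days were 0.07 log2 units apart.

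L1td1 encodes an RNA-binding protein descended from a LINE-1 element, found with LIN28 in human embryonic stem cells. Its values were 6.48 and 6.52 in day 7 aggregates, against 9.38 and 8.75 in day 4 aggregates (probe set 17415702). The day 7 arrays were nearly equal and the day 4 arrays 0.62 log2 units apart. The means were 6.50 ± 0.03 at day 7 and 9.06 ± 0.44 at day 4 (SD, n = 2 each), a difference of -2.57 (SE 0.21, 5.93-fold lower).

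In order of difference the genes formed steps. Fgf5 stood 0.83 log2 units beyond Pim2. The 3 gaps from Pim2 through Vrtn and Calcr to Slc27a2 were 0.12 or less. L1td1 followed 1.18 after Slc27a2, with Utf1 0.02 after L1td1 and Thy1 0.16 after Utf1. Foxd3 came 1.35 after Thy1 and Sall2 0.89 after Foxd3. These gaps are between the values that chose the genes and were not tested. Of the 10 genes 0 were dimmer at day 7 than 4.60, the 25th percentile of mean signal over all genes. The day 7 means of Thy1 (5.31), Vrtn (5.34) and Calcr (5.38) were below the median signal of both day 7 arrays (5.68 and 5.74). The means of the other genes were above both. How far background limits these folds was not tested.

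**Figure D2:**
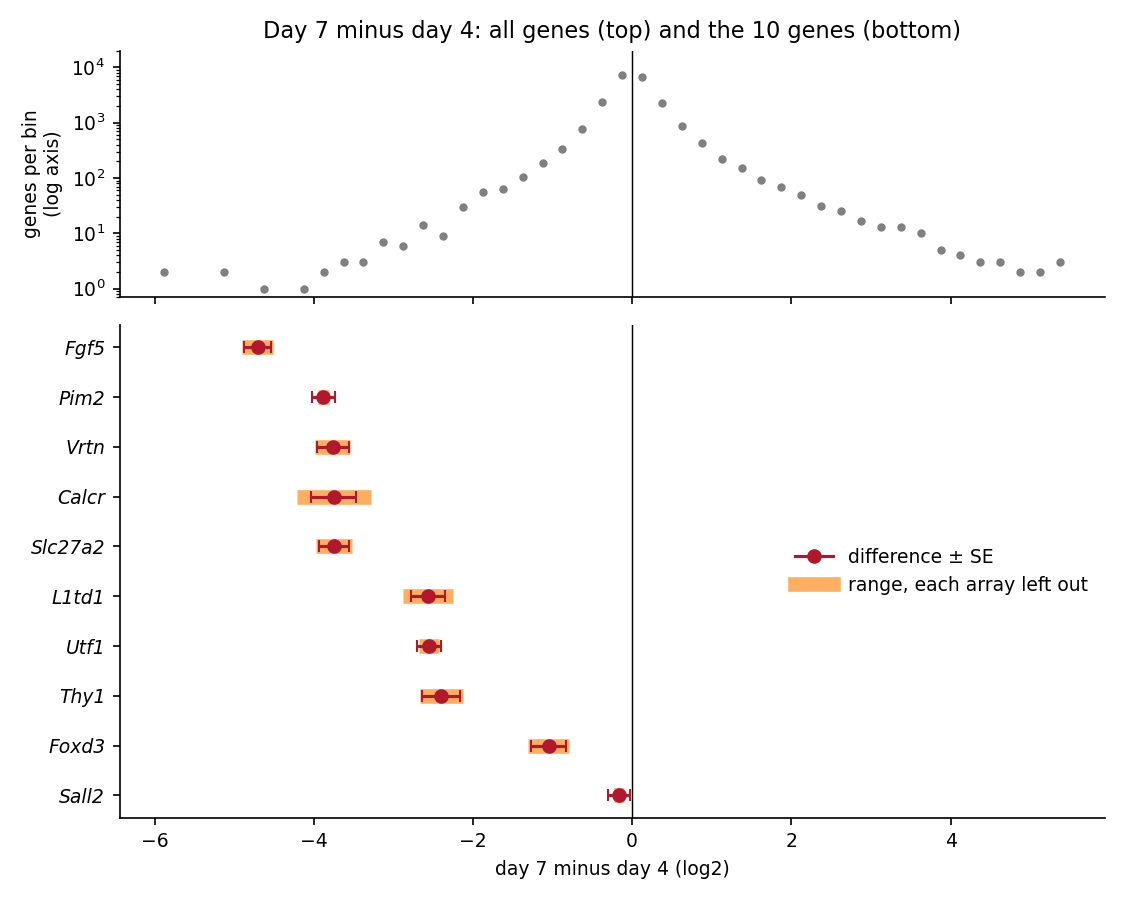
Day 7 minus day 4 in log2 units (horizontal axis) for all genes, as the number per bin of 0.25 on a log axis (top), and for the 10 genes (bottom), with the SE as a bar and the range over fits that left out 1 array in orange. Fgf5 lies at -4.71 and Sall2 at -0.16, next to 0.

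The difference between the arrays of a day was not used in choosing the genes. At day 4 the values were lower in replicate 2 than in replicate 1 for 7 of the 10 genes (48.4% of all genes), with a median of -0.25 for replicate 2 minus replicate 1, against 0.01 over all genes. The median size of that difference was 0.45 at day 4, against 0.18 over all genes. At day 7 the median size was 0.21 for the 10 genes and 0.15 over all genes, and 6 of the 10 were higher in replicate 2. Of the other 72 genes at least 2 log2 units lower at day 7, 63 were lower in day 4 replicate 2, with a median of -0.31. Over all genes 51.5% were higher in day 4 replicate 2. By their medians several lists ran the other way from the 10 genes. Higher there were 9 of 10 markers of eye field and neural tissue (median 0.44), 6 of 7 of blood (0.39) and 5 of 9 of mesenchyme (0.37). So were 7 of 11 of neural crest (0.27) and 16 of 23 relatives and partners (0.13). Endoderm markers, at 5 of 10 (0.04), stood near the all-gene share and median. By median other lists ran the same way as the 10 genes, the naive genes least. Higher in day 4 replicate 2 were 11 of 26 primed and formative genes (-0.16), 6 of 16 general pluripotency genes (-0.14) and 7 of 16 naive genes (-0.07). The same held for 3 of 14 markers of neurons (-0.16) and 3 of 8 of germ cells (-0.15). The part of cell makeup in these array differences was not tested.

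**Figure D3:**
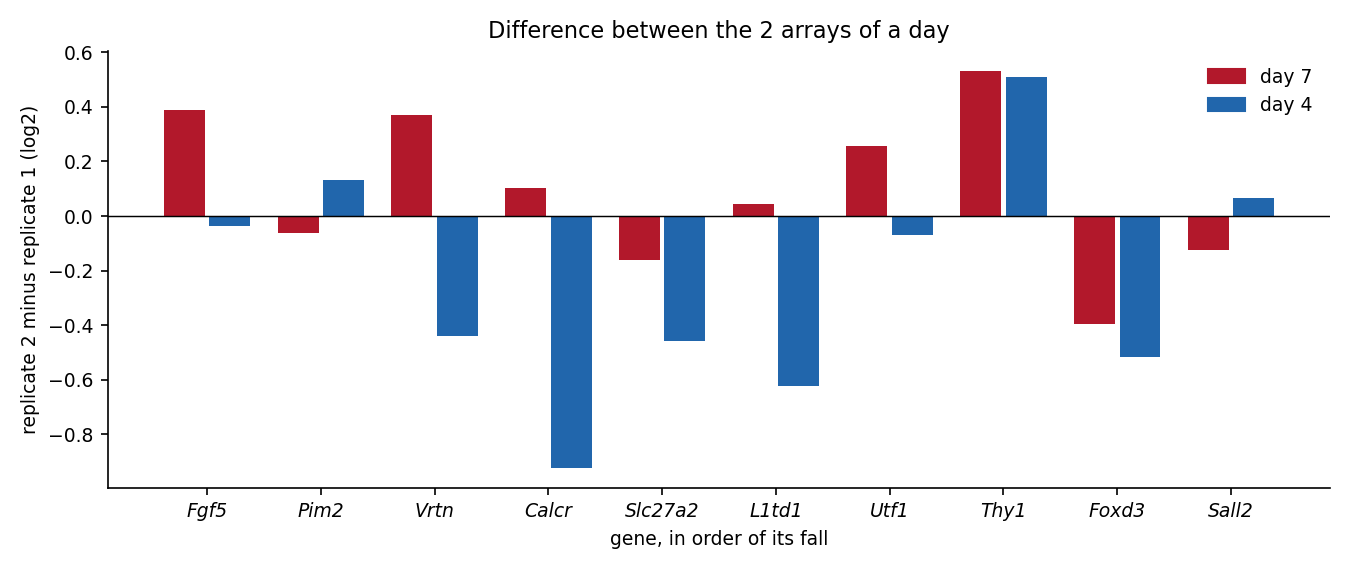
Replicate 2 minus replicate 1 in log2 signal (vertical axis) for the 10 genes, with day 7 in red and day 4 in blue. Calcr (-0.92), L1td1 (-0.62), Foxd3 (-0.52), Slc27a2 (-0.46) and Vrtn (-0.44) were lower in day 4 replicate 2, and Thy1 was higher in replicate 2 at both days.

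Relatives and partners of the genes were read from the fit over all 22180 genes (limma, two-sided, Benjamini-Hochberg, called at an adjusted p under 0.05), in which 4.33% of genes were lower and 6.15% higher at day 7. Ranges of an adjusted p given below run over the other settings tried, less the fit with no variance prior, in which nearly all calls were lost. Of 23 relatives and partners 5 fell, 3 rose and 15 were not called, with a median difference of -0.14. The falls numbered 1 when day 7 replicate 1 was dropped and 3 when day 7 replicate 2 was. Pim1, a kinase of the same family, rose 4.12-fold, with 9.46 ± 0.10 at day 7 and 7.41 ± 0.22 at day 4 (SD, n = 2 each, limma adjusted p = 0.000611). Pim3, the last of the 3 kinases, had a difference of -0.39 (limma adjusted p = 0.145). Pim1 thus rose where Pim2 was 14.7-fold lower.

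The forkhead D genes moved in both directions. Foxd1, a factor of the ventral forebrain and temporal retina, rose 4.57-fold, with 6.72 ± 0.26 at day 7 and 4.53 ± 0.01 at day 4 (SD, n = 2 each, limma adjusted p = 0.000515). Its day 4 mean was below 4.60, the 25th percentile named above. Foxd2 rose 2.64-fold (limma adjusted p = 0.0015). Foxd4 fell by 1.30 log2 units (limma adjusted p = 0.0378) to a day 7 mean of 4.36, also below 4.60, but its limma adjusted p became 0.175 or 0.173 on dropping day 7 replicate 1 or 2 (range 0.00104 to 0.175). In the spalt family, where Sall2 stood nearly level, Sall1 fell 3.17-fold, with 8.07 ± 0.11 at day 7 and 9.74 ± 0.22 at day 4 (SD, n = 2 each, limma adjusted p = 0.00133). Sall4, a partner of Oct4 in pluripotent cells, fell 2.05-fold (limma adjusted p = 0.00681, range 0.000271 to 0.0733, the highest on dropping day 7 replicate 1). Sall3 had a difference of 0.17 (limma adjusted p = 0.707).

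Fgf4, which shares a subfamily with Fgf5 and Fgf6, fell 2.19-fold (limma adjusted p = 0.00624, range 0.00105 to 0.065, the highest on dropping day 7 replicate 1), and Fgf6 had a difference of -0.06 (limma adjusted p = 0.878). The receptor genes Fgfr1 and Fgfr2, whose products bind Fgf5, were not called. Fgfr1 stood at 9.87 ± 0.01 at day 7 and 10.17 ± 0.38 at day 4 (SD, n = 2 each, limma adjusted p = 0.44), and Fgfr2 at 9.90 ± 0.04 at day 7 and 9.95 ± 0.64 at day 4 (SD, n = 2 each, limma adjusted p = 0.956). Of the receptor-activity-modifying proteins that pair with Calcr at the surface, Ramp3 fell by 0.98 log2 units (limma adjusted p = 0.00863). Dropping day 7 replicate 1 or 2 brought its limma adjusted p to 0.0897 or to 0.05, at the threshold (range 0.00426 to 0.0897). Ramp1 and Ramp2 were not called, with differences of -0.14 and -0.56. The related receptor gene Calcrl had a difference of 0.72 (limma adjusted p = 0.0534, range 0.0223 to 0.316). The other 5 fatty acid transport genes, Slc27a1 and Slc27a3 to Slc27a6, had differences between -0.33 and 0.25, and limma called 0 of these 5, with 0 at an unadjusted p under 0.05.

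**Figure D4:**
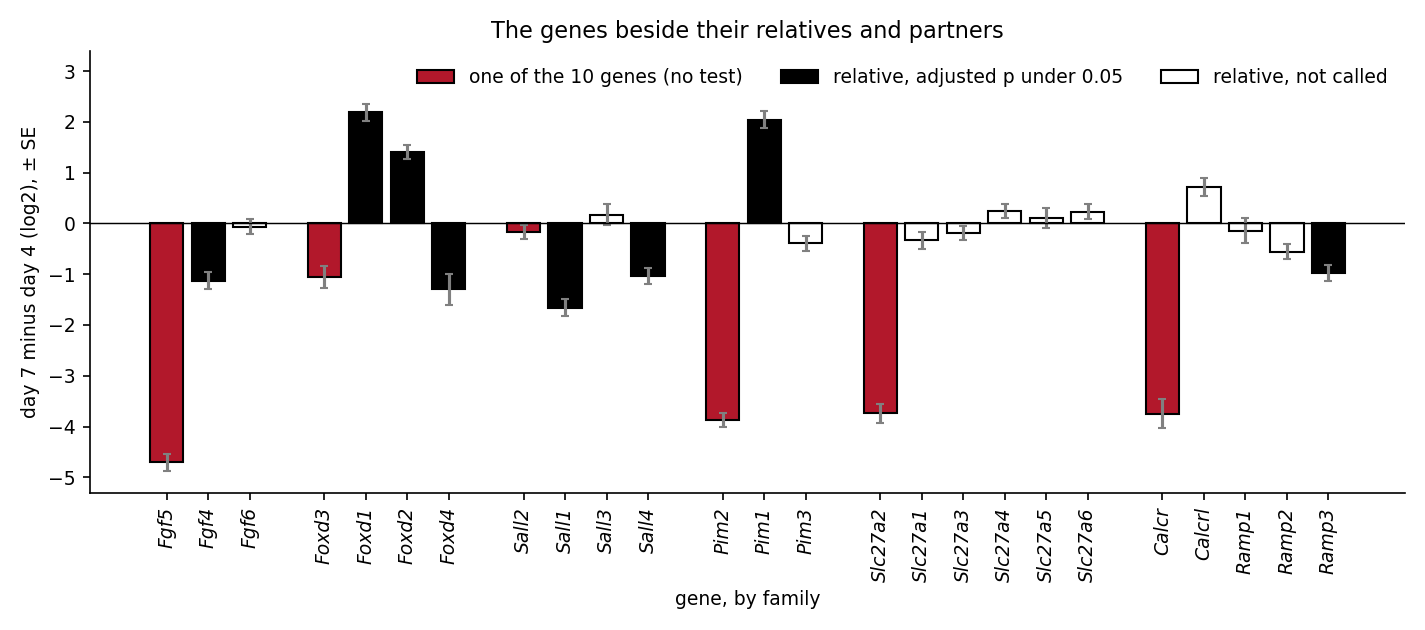
Day 7 minus day 4 in log2 units with its SE for 6 of the 10 genes (red, no test) beside relatives and partners (black where limma's adjusted p was under 0.05, white otherwise). Pim1 (2.04), Foxd1 (2.19) and Foxd2 (1.40) rose, while Pim2 (-3.88) and Foxd3 (-1.05) lay below 0.

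Other markers of the primed and formative epiblast included many falls. This list and those that follow were drawn up with earlier results of these data known. Their shares beside that of all genes are thus a description. Of 26 measured, 14 fell (53.8%, against 4.33% of all genes), 2 rose and 10 were not called, with a median difference of -0.72. There were 8 falls when day 7 replicate 1 was dropped. The largest falls were those of Rab25, a small GTPase of epithelia (17.4-fold, limma adjusted p = 3.96e-05), Dnmt3b, which methylates DNA de novo (10.7-fold, limma adjusted p = 7.24e-05), Foxh1, a factor of Nodal signalling (9.33-fold, limma adjusted p = 9.78e-05), and Esrp1, an epithelial splicing factor (6.51-fold, limma adjusted p = 0.000421). Pou3f1 (Oct6) fell 6.48-fold, with 6.90 ± 0.04 at day 7 and 9.59 ± 0.19 at day 4 (SD, n = 2 each, limma adjusted p = 0.000162). Otx2, a marker of the primed epiblast that forebrain and eye also use, stood at 10.40 ± 0.21 at day 7 and 10.95 ± 0.12 at day 4 (SD, n = 2 each, limma adjusted p = 0.0898, range 0.0157 to 0.463). The genes that rose were Cdh2, the neural cadherin (5.78-fold, limma adjusted p = 0.000325), and Sox3 (2.67-fold, limma adjusted p = 0.00304), both also used by neural progenitors.

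Among 16 general pluripotency genes 11 fell (68.8%) and 5 were not called, with a median of -1.04. There were 5 when day 7 replicate 1 was dropped. The largest falls were those of Zscan10 (7.42-fold, limma adjusted p = 0.00019), the epithelial cadherin gene Cdh1 (4.69-fold, limma adjusted p = 0.000575), Epcam (4.41-fold, limma adjusted p = 0.00106) and Tdgf1 (3.65-fold, limma adjusted p = 0.00119), whose product helps Nodal bind its receptors. Pou5f1 (Oct4) fell 3.47-fold, with 6.26 ± 0.15 at day 7 and 8.06 ± 0.44 at day 4 (SD, n = 2 each, limma adjusted p = 0.00297). Sox2 stood at 11.60 ± 0.02 at day 7 and 11.38 ± 0.07 at day 4 (SD, n = 2 each, limma adjusted p = 0.443). Nanog had a difference of -0.56 (limma adjusted p = 0.0531, range 0.00525 to 0.309).

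Of 16 naive markers 1 fell, 1 rose and 14 were not called, with a median of -0.13. Falls and rises were thus 6.25% each, near the 4.33% and 6.15% of all genes. Zfp42 (Rex1) stood at 8.91 ± 0.20 at day 7 and 8.99 ± 0.05 at day 4 (SD, n = 2 each, limma adjusted p = 0.864), and Esrrb at 6.71 ± 0.04 at day 7 and 6.92 ± 0.10 at day 4 (SD, n = 2 each, limma adjusted p = 0.448). Nr0b1 fell 2.27-fold (limma adjusted p = 0.015, range 0.00215 to 0.111), a call lost on dropping either day 7 array (0.0757 and 0.111). Socs3, a gene induced by LIF signalling, rose 1.68-fold (limma adjusted p = 0.0327). That call was lost on dropping day 4 replicate 1 (limma adjusted p = 0.0976), day 7 replicate 1 (0.131) or day 7 replicate 2 (0.216), and when its probe sets were averaged (0.139), over a range of 0.012 to 0.216. Whether these 3 lists differed from each other was not tested.

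**Figure D5:**
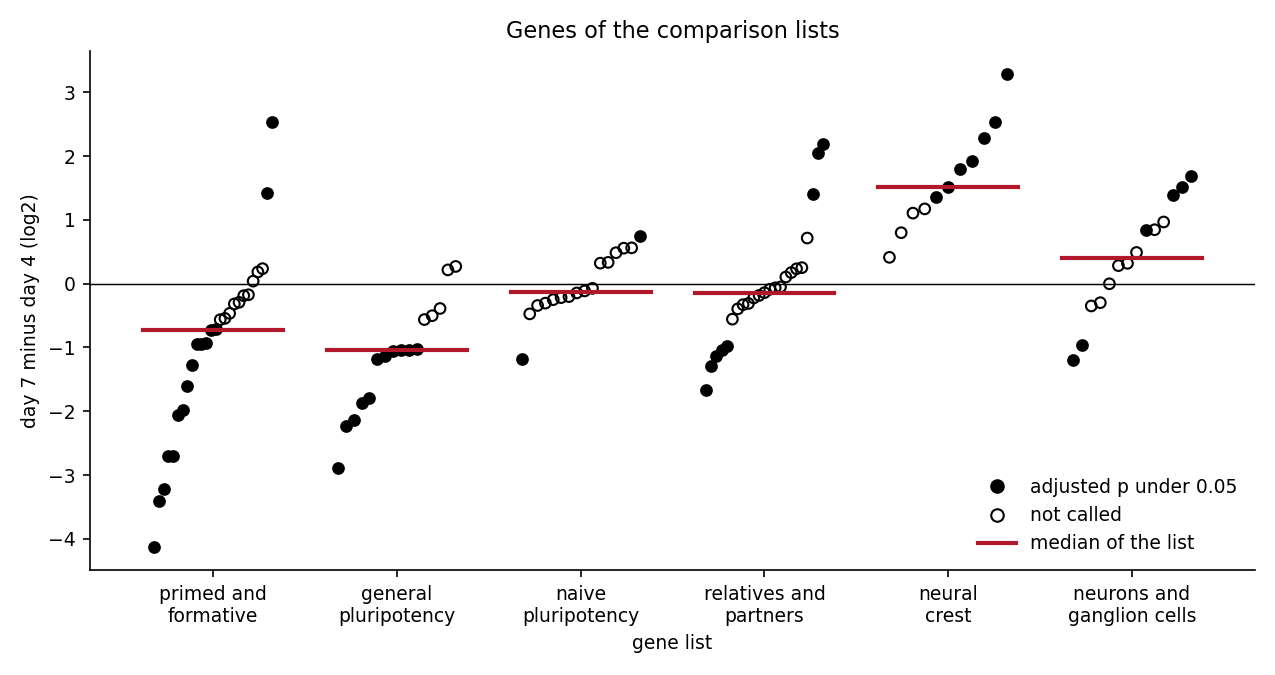
Day 7 minus day 4 in log2 units for every measured gene of 6 lists, filled where limma's adjusted p was under 0.05, with the list's median in red. The medians are -0.72 for primed and formative genes, -1.04 for general pluripotency genes, -0.13 for naive genes, -0.14 for relatives and partners, 1.52 for neural crest and 0.40 for neurons.

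Several of the 10 genes are also known from other cells, whose markers were read from the same fit. Markers of the neural crest, where Foxd3 is used again, rose in 7 of 11 cases (63.6%, against 6.15% of all genes), with a median of 1.52. Their signals, summed on the linear scale and given as log2, were 11.27 and 11.35 at day 7, against 9.31 and 9.87 at day 4. Tfap2b (9.73-fold, limma adjusted p = 9.12e-05), Pax3 (5.83-fold, limma adjusted p = 0.000394) and Sox10 (3.79-fold, limma adjusted p = 0.00271) rose. Sox9 rose 4.88-fold (limma adjusted p = 0.0144, range 0.000101 to 0.0903), a call lost on dropping either day 7 array (0.0903 and 0.0838). Foxd3 itself was 2.07-fold lower at day 7. The part of crest cells in its level was not tested.

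Markers of neurons and retinal ganglion cells, which carry Thy1, split (median 0.40). Beside 6.15% higher and 4.33% lower over all genes, 4 of 14 were higher (28.6%), 2 lower (14.3%) and 8 not called. Dropping day 7 replicate 1 left 2 higher and 1 lower. Dcx rose 3.24-fold (limma adjusted p = 0.000743) and Elavl4 2.86-fold (limma adjusted p = 0.00143), while Rbpms fell 2.28-fold (limma adjusted p = 0.00282). The summed signal of the list, as log2, was 11.95 and 11.95 at day 7, against 12.50 and 12.41 at day 4. A linear sum follows the brightest genes. At day 4 these were Rbpms (mean 11.61) and Stmn2 (9.90), the 2 genes called lower. Of the 14 differences 5 lay below 0, so the lower sum does not describe the list as a whole. Blood markers were listed for the T cell side of Thy1 and Pim2. Without Lck, which was not analysed, Cd3e was the T cell gene among them, so the list says little on T cells. These 7 markers gave 0 calls with limma, and 0 at an unadjusted p under 0.05. Their summed signal, as log2, was 8.16 and 8.31 at day 7 and 8.30 and 8.49 at day 4.

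Over all genes 4.33% fell and 6.15% rose. Among 8 germ cell markers, for the germ cell side of Utf1, 2 fell (25%) and 1 rose (12.5%). Among 9 mesenchyme markers, for the fibroblast side of Thy1, 2 rose (22.2%). Among 10 endoderm markers, for the side of Slc27a2 shared with liver and kidney, 1 rose (10%). Each of these 3 lists lost or gained calls when 1 array was left out, over ranges of 0 to 2 falls and 0 to 1 rises for germ cells, 1 to 5 rises for mesenchyme, and 0 to 2 falls and 0 to 1 rises for endoderm. The summed endoderm signal, as log2, was 11.22 and 11.94 at day 7, against 12.02 and 11.79 at day 4. Of 10 markers of eye field and neural tissue 7 rose (70%), Pax6 11.1-fold (limma adjusted p = 0.000141). Rax rose 2.85-fold (limma adjusted p = 0.021, range 0.00183 to 0.119), a call lost on dropping day 4 replicate 1 (0.052) or day 7 replicate 2 (0.119). The part of any of these cell types in the 10 differences was not tested.

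By gene order in the RefSeq table of assembly GRCm38.p6, the 10 genes lie on 9 chromosomes. L1td1 and Foxd3 share chromosome 4, with 3 measured protein-coding genes between them, Kank4, Usp1 and Atg4c. These 3 had differences of 0.05, 0.17 and 0.14 and were not called (limma adjusted p = 0.923, 0.63 and 0.664). Of the 20 measured coding genes next to a member on either side, 4 fell and 1 rose. The shares over all genes were 4.33% and 6.15%. Among these neighbours 15 were not called, with a median of -0.09. On dropping day 7 replicate 1 there was 1 fall and no rise, and on dropping day 7 replicate 2 there were 2 falls and no rise. Cfap299, beside Fgf5, fell 2.37-fold (limma adjusted p = 0.00296). Its day 7 mean of 3.67 was below 4.60, the 25th percentile of mean signal, and the filter on dim genes left it out, with 3 falls among the neighbours that remained. Prdm8, on the other side of Fgf5, had a difference of -0.07 (limma adjusted p = 0.869). Patj, an apical polarity gene beside L1td1, fell 2.18-fold (limma adjusted p = 0.00706, range 0.00195 to 0.064, the highest on dropping day 7 replicate 1).

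Genes with the most similar pattern were found as those whose values on the 4 arrays, each less the gene's own mean, had the smallest root mean square difference. To the median profile of the 10 genes the nearest were Foxh1 (0.05 log2 units), Gng3 (0.05), Mal2 (0.08), Mir302b (0.14) and Platr10 (0.15), with day 7 minus day 4 differences between -3.30 and -2.95. To Fgf5 they were Mir367 (0.22), Rab25 (0.33) and Mir302d (0.39), with differences of -5.03, -4.12 and -5.17. These arrays are the ones that chose the 10 genes, so the likeness is a description.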

How the data were processed

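The files hold log2 signals that the authors deposited for each probe set on each of 4 arrays. The submitters' processing notes name RMA and Partek 6.5. RMA corrects background, normalizes arrays to each other and summarises probes. Its settings and genome build are not given in the sources used here. Dim genes keep some background, which shrinks their folds. RNA was taken with Trizol and a column and labelled with biotin as sense cDNA, per the labels' protocols.

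Of 41345 probe sets, 23521 named 1 gene, which gave 22180 genes, taking the brightest probe set where a gene had several. Of these probe sets, 23328 matched RefSeq gene identifiers (GRCm38.p6). The day 7 minus day 4 difference was fitted with limma 3.58.1 in R 4.3.3 (no trend, day as the only term, 2 residual degrees of freedom), tested on simulated data, with Benjamini-Hochberg adjustment across the 22180 genes. SE is limma's moderated standard error. The number of arrays limits the precision. Pearson's r across probe sets (not independent replicates) was 0.991 between the day 7 arrays and 0.986 between the day 4 arrays.

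The 10 genes and the lists were chosen with earlier results of these data known. Named genes were the 10, up to 4 called genes with the largest fall and up to 4 with the largest rise per list, the relatives and partners, and a fixed set that included Pou5f1, Nanog, Zfp42, Esrrb and Otx2. Genes next to the 10 in gene order, and other names in counts, were chosen after their values were seen. Eras, Calca, Pou4f2, Msx1 and Lck were on the lists and were not analysed here. Fgf4, Sall4 and Otx2 each stand in 2 lists. Alternatives left out each array, used the replicate number as a block, other scalings, a filter on dim genes, other variance priors, averaged probe sets per gene and an adjusted p limit of 0.01. Figures were drawn with Matplotlib 3.10.9.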

Additional observations from a re-analysis of the deposited data

How the results depend on the processing

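All 10 differences stayed below 0 under each alternative run. Because the days did not overlap for any of the 10, the fits that left out an array could give no other sign. The replicate block leaves each difference as it was. Of the 10 genes' values outside the fits that left out an array, the one for Slc27a2 with averaged probe sets (-2.18) moved by more than the spread between replicates. Leaving out 1 array gave -4.90 to -4.51 for Fgf5, -3.94 to -3.81 for Pim2, -3.98 to -3.54 for Vrtn, -4.21 to -3.29 for Calcr, -3.97 to -3.51 for Slc27a2, -2.88 to -2.26 for L1td1, -2.68 to -2.42 for Utf1, -2.66 to -2.13 for Thy1, -1.31 to -0.79 for Foxd3 and -0.22 to -0.10 for Sall2. It gave 314 to 1122 falls and 573 to 1378 rises over all genes, in place of 960 and 1364. Falls then numbered 8 to 13 among primed and formative genes, 5 to 12 among general pluripotency genes, 0 to 1 among naive genes and 1 to 5 among relatives and partners, and rises 0 to 1 among naive genes. The lone array left for a day is then assumed to vary like the other day. With no variance prior 1 gene fell and 2 rose in all (1581 and 1976 at an unadjusted p under 0.05). In each of the lists of primed, general, naive and related genes 0 fell and 0 rose, with 12, 10, 0 and 7 lower at an unadjusted p under 0.05 and 2, 0, 0 and 4 higher. At an adjusted p limit of 0.01 there were 403 falls and 675 rises over all genes, 9 falls among primed genes, and 0 falls and 0 rises among naive genes, where limma gave 2 and 3 at an unadjusted p under 0.05. Naive falls numbered 2 with an intensity trend in the variance prior, and naive rises 0 with averaged probe sets. Apart from the settings built on fewer arrays or a stricter limit, the cause was not tested. With the replicate number as a block 1164 genes fell and 1606 rose, and for primed, general, naive and related genes no count moved by more than 1.5 times. The deviations of same-numbered arrays correlated with r = 0.186 over all genes, and the labels do not say that the numbers pair the samples. The arrays give no detection calls, so which low signals are background is not known.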
